A study of Mus musculus with 30 samples.

Results

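Arginase, nitric oxide and polyamine enzymes were followed in the mouse colon through 10 genes of the 46078 in the count table, which were chosen by name for their place in arginine metabolism, with earlier results of these data known. They were the arginases Arg1 and Arg2, the inducible nitric oxide synthase Nos2, the argininosuccinate synthase Ass1, the polyamine enzymes Odc1, Amd1 and Sat1, and the antizymes Oaz1, Oaz2 and Oaz3. All 10 were found by symbol in the TPM tables and by gene identifier in the counts. RNA was sequenced from the colon of C57BL/6J mice, with 6 libraries in each of 5 groups. The labels give the tissue as colon, and the study names distal colon in its account of the E2 data and of tissue RNA. CD F and CD M were females and males fed a control diet (CD, 10% of the energy from fat), and HFD F and HFD M were females and males fed a high-fat diet (HFD, 60%). All were fed for 13 weeks and received 9 intraperitoneal injections during the last 3 weeks, with vehicle in these 4 groups. HFD+E2 M were males on HFD that received estradiol (E2) at 0.5 mg/kg body weight. The mice were 5 to 6 weeks old when obtained, and the females were not ovariectomized. No sequenced group of CD males or of females received E2, so in these data its effect was measured under HFD and in males only. The study also gave E2 to females on HFD and measured genes in their colon by qPCR, which is not part of these data.

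Arginine stands where several pathways divide. Arginases split it into urea and ornithine, nitric oxide synthases use it to make nitric oxide, and argininosuccinate synthase takes part in making it again from citrulline. Ornithine is turned into putrescine by ornithine decarboxylase, and S-adenosylmethionine decarboxylase supplies the group that lengthens putrescine to spermidine and spermine, which dividing epithelial cells need. Antizymes bind ornithine decarboxylase and send it to the proteasome, and spermidine/spermine acetyltransferase starts the breakdown and export of polyamines. In immune cells Arg1 and Nos2 are widely used as markers of different states of macrophages, and Arg1 is also made by keratinocytes and other stratified epithelia.

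Antizyme protein is made only when ribosomes shift their reading frame by a base, a step that rises with polyamine levels. The annotation (GRCm38) shows it as a base left out of the coding sequence, and the coding sequence around that place is given here because it is what the antizymes share. Each line shows 15 bases before and 15 bases after the base left out, 5′ to 3′, with the last codon before it and the next 2 bases in capitals.

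Oaz1: cctcggtggtgcTCCGAtgtccctcaccca

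Oaz2: cctctgtggtgcTCCGAtgcccctcaccca

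Oaz3: tgcctccagtgcTCCGAgtccctaggaggc

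The base left out was at position 80828295 of chromosome 10 in Oaz1, 65686272 of chromosome 9 in Oaz2 and 94436034 of chromosome 3, on the minus strand, in Oaz3, and in each case coding sequence was annotated directly on both sides of it. Oaz1 and Oaz2 had the same base at 28 of 30 positions, and Oaz3 had the same base as Oaz1 at 12 and as Oaz2 at 14. The codon and the following 2 bases were the same in all 3 antizymes. Counts of reads show how much antizyme RNA was present and do not show how often ribosomes shifted.

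The counts on genes ranged from 8667177 to 17243712 per library (median 11530915), and mitochondrial genes took from 26.1% to 37.99% of them. The colon label was checked with 12 colonocyte genes, whose summed level was 3443 to 5229 TPM, with none at 0 in any group. Marker genes of other cell types were also summed in each library. Of these, 20 genes of stratified squamous epithelium, a tissue of skin and the anal canal, stood apart in 6 libraries, HFD F 1, 3, 4 and 5 and HFD M 2 and 4. Their sum was 184.2 to 2039 TPM in these 6 libraries and 36.7 to 91.3 TPM in the other 24. The 6 libraries were all from vehicle-treated mice on HFD, so results for Arg1 and Nos2 are given with and without them.

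The 10 genes covered a wide range of levels, which can be compared between genes in TPM because TPM is scaled to gene length. Sat1 was the highest, with 74.2 ± 17.4 TPM (SD over 30 libraries), followed by Oaz1 with 44.8 ± 16.1 TPM, Odc1 with 24.9 ± 4.54 TPM and Amd1 with 20.9 ± 5.81 TPM. Ass1 and Oaz2 lay at 10.9 ± 2.16 and 10.9 ± 3.55 TPM, and Ass1 was above Oaz2 in 19 of 30 libraries. Oaz3 had 1.71 ± 1.28 TPM, Arg2 0.236 ± 0.235 TPM and Nos2 0.177 ± 0.300 TPM. Arg1 had a mean of 9.51 TPM, but this came from few libraries, since its median was 0.0406 TPM. No neighbours in this order were separated in every library pair, since the ranges of all 9 neighbouring pairs overlapped. Within a library the order was steadier, with Amd1 above Ass1 in 30 of 30 libraries, Oaz3 above Arg2 in 29 and Oaz1 above Odc1 in 28.

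**Figure D1:**
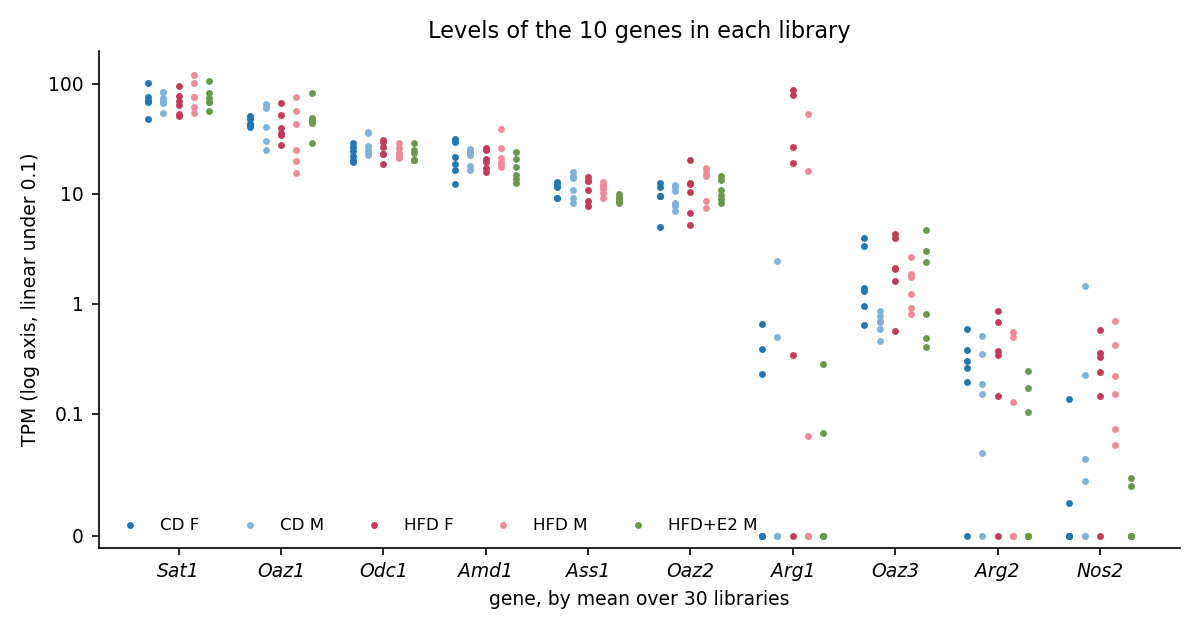
TPM of each gene in each of the 30 libraries, on an axis that is logarithmic above 0.1 TPM, with genes in order of their mean and colors for the 5 groups of 6 libraries. Sat1, Oaz1, Odc1, Amd1, Ass1 and Oaz2 were present in every library, with Oaz1 spread from 15.6 to 76.2 TPM within HFD M, while Arg1, with a median of 0.0406 TPM, was above 10 TPM in 4 HFD F and 2 HFD M libraries only.

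Near-identical copies of Oaz1 and Amd1 are annotated elsewhere in the genome. The pseudogene Oaz1-ps was given a mean of 33.6 TPM but only 0 to 32 counts, and Amd2 was given 8.72 TPM but 0 to 5 counts. Over the 30 libraries, log2 TPM and log2 CPM (counts scaled to the same total) of the same gene correlated with r = 0.472 for Oaz1 and r = 0.532 for Oaz2, compared with 0.852 for Amd1, 0.984 for Arg1 and 0.865 for Oaz3. The part of the copies in these values was not tested. Groups were compared on counts, and the values of Oaz1 and Amd1 are uncertain as far as reads could be placed on their copies.

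Each pair of groups was compared with edgeR's quasi-likelihood test, fitted to all genes that passed its filter on low counts. A gene is called changed here where its unadjusted p-value was under 0.05 and its log2 fold change over 0.4 in either direction, which is a reading of the study's threshold, and calls with an adjusted p-value under 0.05 are given separately. Between CD F and CD M, 7 of the 10 genes could be tested and 1 was called, Oaz3, by both rules, against 9.15% and 2.92% of all 14922 genes tested. Between HFD F and HFD M, 0 of 9 were called by either rule (3.09% and 0.0988% of all genes). Between HFD F and CD F, 1 of 8 was called, Nos2, which had enough counts to be tested only with the high values of HFD F, and 0 by adjusted p-value (3.67% and 0.0199% of all genes). Between HFD M and CD M, 1 of 7 was called, Oaz3, and 0 by adjusted p-value (2.9% and 0% of all genes). Between HFD+E2 M and HFD M, 0 of 7 were called by either rule (5.87% and 0.00666% of all genes). For the interaction of sex and diet in the 4 vehicle groups, 1 of 9 was called, Oaz3, and 0 by adjusted p-value (5.18% and 0% of all genes). At an unadjusted p-value under 0.05 alone, with no minimum fold change, 904 genes passed between HFD M and CD M and 1066 for the interaction, where adjusted p-values called 0 genes with edgeR, and DESeq2 called 25 and 3 genes by adjusted p-value. Arg1, Arg2 and Nos2 failed the filter in some or all comparisons and were compared by permutation of log2 CPM between the libraries of a pair of groups, exact and two-sided, which was run for all 10 genes in the 5 comparisons. Its smallest p-value with 6 against 6 libraries is 0.00216, 6 of the 50 tests gave a p-value under 0.05, and 0 remained so after adjustment over the 50.

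**Figure D2:**
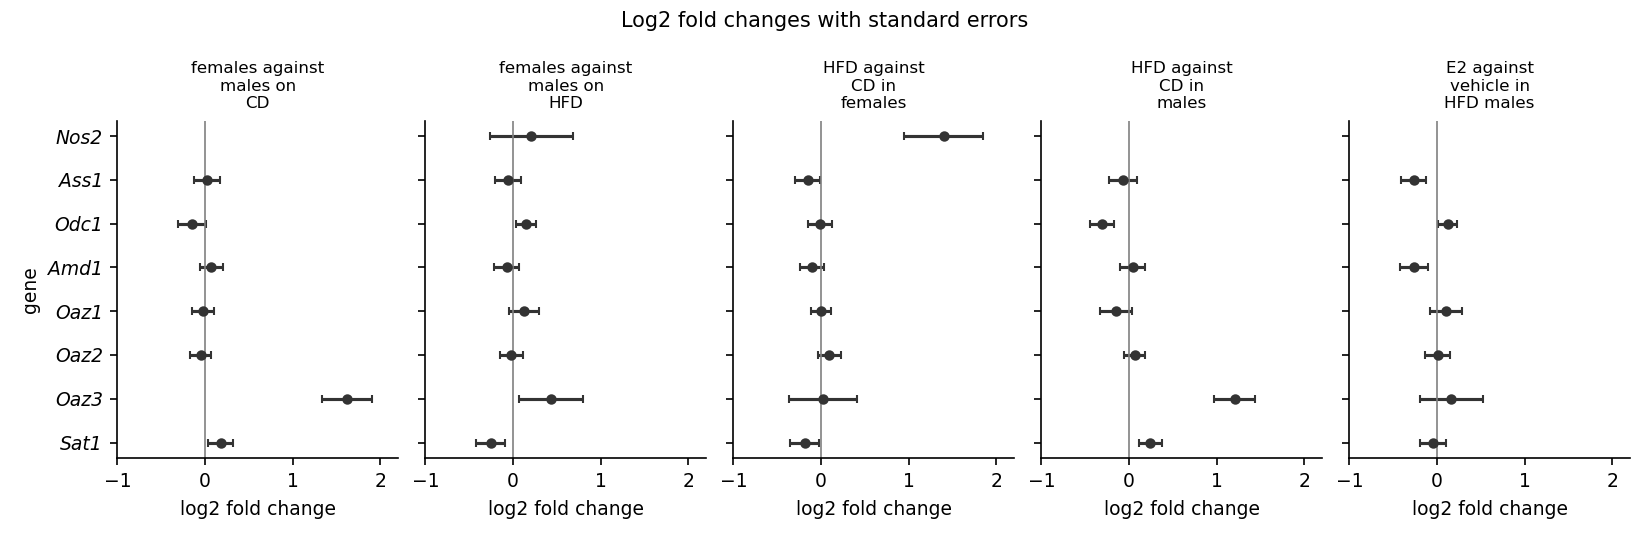
Log2 fold change of 8 genes in the 5 comparisons, with standard errors as bars, for genes with enough counts to be tested. Arg1, which was tested between HFD F and HFD M only (1.65 ± 1.53), is not drawn. Oaz3 stood at 1.62 between the sexes on CD and at 1.21 between HFD and CD males, Nos2 at 1.40 between HFD and CD females, and the other 6 genes stayed between -0.31 and 0.25.

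Arg1 on chromosome 10 (24915208 to 24927470, minus strand) encodes the cytosolic arginase. It was nearly silent in most libraries. The counts were 12, 0, 4, 4, 2 and 7 in the 6 CD F libraries. They were 8, 1, 38, 0, 1 and 3 in CD M. In HFD F, Arg1 had 1079, 5, 1008, 375, 240 and 2 counts, so 4 libraries were far above all CD libraries and 2 were not. In HFD M it had 1, 552, 2, 187, 2 and 2 counts, with 2 libraries high, and in HFD+E2 M it had 1, 0, 3, 3, 2 and 4 counts.

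The 6 libraries with over 100 counts of Arg1 were the same 6 that were high in squamous epithelium genes. These 6 had at least 17.1 CPM of Arg1, and the other 24 had at most 2.55 CPM. The 6 libraries had been set apart by the sum of the 20 squamous genes, and 16 of these separated them singly from the other 24 without overlap. Arg1 is not on that list. Over the 30 libraries, log2 CPM of Arg1 correlated with the summed squamous genes with r = 0.915, and over the 24 libraries without high squamous genes with r = 0.126, a description that shares libraries and depth between both measures. The genes most like Arg1 over the 30 libraries, among 14904 genes compared, were Calml3 (r = 0.973), Spink5 (0.969), Tmprss11g (0.968), Psca (0.968) and Tmprss11b (0.967). Calml3, a calmodulin-like protein of epithelia, had 74 to 764 counts in the 6 libraries and 0 to 8 in the other 24. Calml3 is itself 1 of the 20 squamous genes that set these libraries apart, so its separation was partly fixed by that choice. Spink5, a protease inhibitor of the skin barrier, had 115 to 1540 counts against 0 to 16. The 12 macrophage genes did not move with Arg1. Their sum was 101.2 to 125.6 TPM in the 6 libraries and 73.1 to 149.3 TPM in the others, with r = -0.01 over the 30 libraries and no macrophage gene at 0 in any group. The 10 neutrophil genes summed to 94.5 to 371.6 TPM in the 6 libraries and 37.8 to 186.2 TPM in the others, with r = 0.601 over the 30 and -0.07 over the 24. In CD F, 6 of these 10 (Mpo, Elane, Retnlg, Camp, S100a8 and S100a9) had 0 counts in all libraries. Elane was at 0 in every group, Mpo also in HFD M and Cxcr2 in HFD+E2 M. In CD F the neutrophil sum thus rested on few genes. In tissue RNA, more cells of a type and more RNA per cell cannot be told apart.

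**Figure D3:**
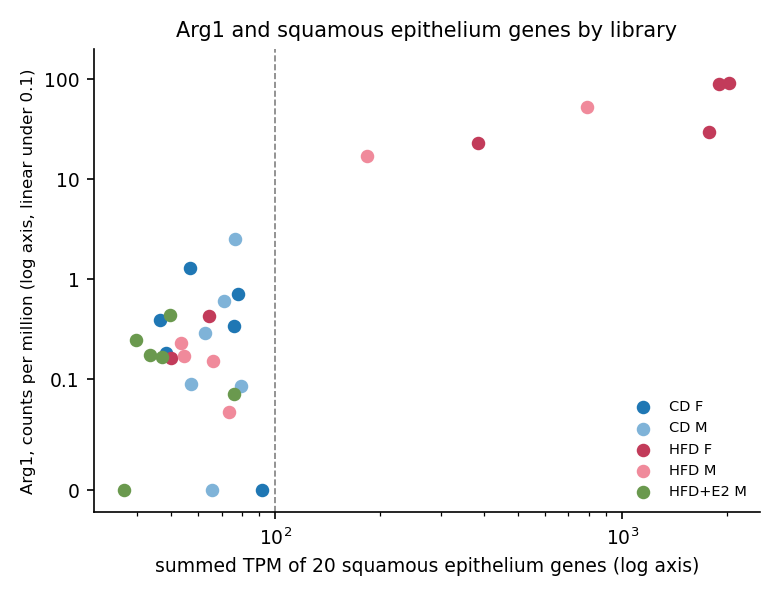
Arg1 in CPM (logarithmic above 0.1) against the summed TPM of 20 squamous epithelium genes (logarithmic) in each of the 30 libraries, colored by group, with the limit of 100 TPM as a broken line. The 4 HFD F and 2 HFD M libraries to the right of the line had 17.1 CPM of Arg1 or more, and the other 24 had 2.55 CPM or less.

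Between HFD F and CD F, the mean of Arg1 differed by 4.24 in log2 CPM (exact permutation p = 0.0390, adjusted over 50 tests 0.390). Without the 4 HFD F libraries high in squamous genes it was -0.24 (exact permutation p = 0.750), with HFD F 2 and 6 left in that group. These 4 were also the 4 high in Arg1, so leaving them out had to remove the difference, and its cause was not tested. The same holds for the values below without such libraries. Leaving out HFD F 1, 3, 4 or 5 or CD F 2 singly raised the exact permutation p-value to at most 0.0563. Between HFD M and CD M it was 1.63 (exact permutation p = 0.331), and -0.56 without the 2 HFD M libraries high in squamous genes. Between HFD+E2 M and HFD M it was -2.17 (exact permutation p = 0.251), and 0.02 without them. Between HFD F and HFD M it was 2.75 (exact permutation p = 0.147). Here Arg1 passed the filter of edgeR through the libraries where it was high, with a log2 fold change of 1.65 ± 1.53 (SE, edgeR, adjusted p = 0.885). Without the 6 libraries high in squamous genes and with no filter it was 0.88 ± 1.04 (SE, edgeR, adjusted p = 0.9998).

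Arg2, the mitochondrial arginase, on chromosome 12 (79130777 to 79156301), was low in every library, with 0 to 21 counts. Its lowest, median and highest counts were 3, 8 and 9 in CD F and 0, 2 and 9 in CD M. They were 3, 6 and 15 in HFD F, 1, 4 and 9 in HFD M and 1, 4 and 21 in HFD+E2 M. The groups overlapped in all comparisons. The mean of CD F was 0.99 above that of CD M in log2 CPM (exact permutation p = 0.0325, adjusted over 50 tests 0.390), but the difference was 0.34 on log2(TPM + 0.1) (exact permutation p = 0.532). Leaving out 1 library raised the exact permutation p-value above 0.05 in 8 of 12 cases, to at most 0.0693. The end of Arg2 overlaps Vti1b on the opposite strand, which had 289 to 556 counts, and it is not given whether the reads were counted by strand.

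Nos2 on chromosome 11 (78920787 to 78960254) makes nitric oxide from arginine and is induced by inflammatory signals. Its counts were 11, 6, 3, 3, 6 and 9 in CD F. They were 24, 8, 7, 6, 5 and 61 in CD M, where libraries 1 and 6 stood above the rest. HFD F had 30, 3, 22, 18, 24 and 14 counts, and relative to depth (CPM) 4 of its 6 libraries were above every CD F library. These were HFD F 1, 3, 4 and 5. HFD M had 10, 28, 8, 25, 7 and 11 counts. HFD+E2 M had 8, 0, 12, 8, 12 and 5 counts, and overlapped HFD M.

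**Figure D4:**
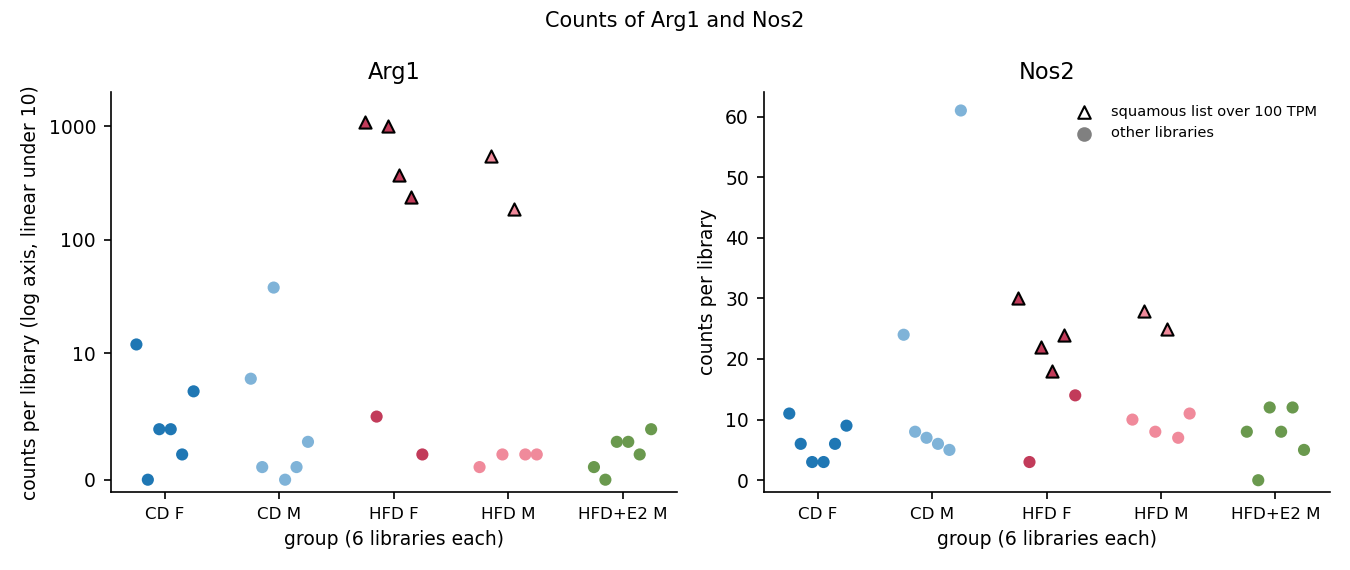
Counts of Arg1 (left, logarithmic above 10) and Nos2 (right, linear) in each library by group, with triangles for the 6 libraries whose squamous epithelium genes summed to over 100 TPM. The triangles hold 187 to 1079 counts of Arg1 against 0 to 38 elsewhere, and 18 to 30 counts of Nos2 against 0 to 61 elsewhere.

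Between CD F and HFD F, Nos2 had a log2 fold change of 1.40 ± 0.45 (SE), past the unadjusted threshold but not the adjusted one (edgeR, adjusted p = 0.531). It failed the filter between CD F and CD M and in both comparisons of males, and passed here through the group where it was high, so this call is a description. The exact permutation test, which needs no filter, gave 1.07 in log2 CPM (exact permutation p = 0.0498, adjusted over 50 tests 0.415), and its p-value was above 0.05 in 9 of 12 cases with 1 library left out, at most 0.0974. Without the 4 HFD F libraries high in squamous genes it was 0.28 and past neither (edgeR, adjusted p = 0.9998). These 4 were also the 4 above every CD F library for Nos2, so leaving them out had to shrink the difference. The counts were 18 to 30 in the 6 libraries with high squamous genes, and the highest counts of all, 61, were in a CD M library without them. The neutrophil genes summed to 179.9 TPM in CD M 1 and 100.7 TPM in CD M 6, the 2 highest libraries of CD M for Nos2, and to 62.1 to 66.3 TPM in the other 4. This was not so in every group, since HFD+E2 M 1 had 186.2 TPM of neutrophil genes with 8 counts of Nos2, and HFD M 1 had 145.8 TPM with 10 counts. Over the 30 libraries Nos2 correlated with the squamous genes with r = 0.531 and with the neutrophil genes with r = 0.511, and over the 24 with r = 0.153 and 0.267. Of the 10 neutrophil genes, 6 had 0 counts throughout CD F, which limits what their sum shows there. The part of these cell types in the Nos2 difference was not tested.

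Between HFD+E2 M and HFD M, Nos2 differed by -1.02 in log2 CPM (exact permutation p = 0.0671, adjusted over 50 tests 0.479). On log2(TPM + 0.1) the groups did not overlap and the difference was -1.50 (exact permutation p = 0.00216, the smallest possible). TPM listed Nos2 at 0 in 11 libraries, of which 1 had 0 counts. The 2 HFD M libraries high in squamous genes also had the highest Nos2 of HFD M, so leaving them out had to lower its mean. Without these 2 libraries the difference in log2 CPM was -0.52 (exact permutation p = 0.410). Between CD F and CD M it was -0.74 (exact permutation p = 0.251), and between HFD M and CD M 0.17 (p = 0.799 by the same exact permutation test), or -0.33 without the 2 HFD M libraries high in squamous genes (exact permutation p = 0.733). In HFD F against HFD M edgeR gave a log2 fold change of 0.21 ± 0.47 (SE, adjusted p = 0.945), and -0.14 ± 0.64 without the 6 libraries (SE, adjusted p = 0.9999). The genes most like Nos2 over the 30 libraries were Sox21 (r = 0.723), Pard6g (0.711), Kctd15 (0.701), Myh8 (0.699) and Slc7a2 (0.696). Slc7a2 carries cationic amino acids such as arginine into cells and had 65 to 140 counts in the 6 libraries high in squamous genes and 30 to 94 in the others. Nos2 and Arg1 correlated with each other with r = 0.594 over the 30 libraries, the highest value among the pairs of the 10 genes.

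Ass1, on chromosome 2 (31470207 to 31520672), joins citrulline and aspartate on the way to arginine. Its lowest, median and highest counts were 80, 104 and 124 in CD F and 76, 115.5 and 169 in CD M. They were 64, 108.5 and 135 in HFD F, 80, 104 and 124 in HFD M and 65, 89.5 and 129 in HFD+E2 M. The level in HFD+E2 M was 8.95 ± 0.635 TPM, compared with 11.1 ± 1.30 TPM in HFD M (SD, n = 6 each). Ass1 was 0.27 lower in log2 CPM in HFD+E2 M than in HFD M (exact permutation p = 0.0281), with 5 of 6 libraries at or below the HFD M median, but this was not significant after adjustment over 50 tests (0.390). The edgeR log2 fold change of -0.27 ± 0.14 (SE) did not pass either threshold (adjusted p = 0.508). In the other 4 comparisons the log2 fold change of Ass1 was between -0.15 and 0.02.

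Odc1, on chromosome 12 (17544873 to 17551502), makes putrescine and is the enzyme that antizymes control. Its lowest, median and highest counts were 346, 493.5 and 609 in CD F and 389, 569.5 and 809 in CD M. They were 376, 505.5 and 688 in HFD F, 337, 447 and 547 in HFD M and 395, 485.5 and 693 in HFD+E2 M. The mean level was 28.5 ± 6.23 TPM in CD M and 24.1 ± 3.09 TPM in HFD M (SD, n = 6 each). The log2 fold change between HFD M and CD M was -0.31 ± 0.14 (SE), which is under the minimum of 0.4 (edgeR, adjusted p = 0.823). Between the sexes it was -0.15 ± 0.16 on CD and 0.15 ± 0.11 on HFD, with E2 0.12 ± 0.11, and between HFD F and CD F -0.01 ± 0.13 (SE).

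Amd1, on chromosome 10 (40287458 to 40302188, minus strand), is the S-adenosylmethionine decarboxylase. It had 203 to 552 counts per library. The log2 fold change with E2 was -0.26 ± 0.16 (SE, adjusted p = 0.532), and it was between -0.10 and 0.07 in the other 4 comparisons. Group means ranged from 17.2 ± 4.40 TPM in HFD+E2 M to 23.6 ± 7.90 TPM in HFD M (SD, n = 6 each), and the groups overlapped.

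Of the antizymes, Oaz1 and Oaz2 are made in most tissues and Oaz3 is known from male germ cells. Oaz1, on chromosome 10 (80826656 to 80829290), had 232 to 561 counts per library, and its log2 fold change was between -0.15 and 0.13 in the 5 comparisons, with standard errors of up to 0.19. Oaz2, on chromosome 9 (65668001 to 65690300), had 113 to 288 counts, and its log2 fold change was between -0.05 and 0.10, with standard errors of up to 0.14. For Oaz2 a change of about 0.4 would thus have been over 2 standard errors.

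Oaz3, on chromosome 3 (94432414 to 94436763, minus strand), was the gene of the 10 that differed between groups by the adjusted threshold. It had counts in all 30 libraries. The counts were 44, 16, 24, 34, 28 and 26 in CD F. They were 10, 11, 12, 10, 11 and 9 in CD M, so by counts all 6 CD males were below all 6 CD females. HFD F had 17, 35, 12, 22, 60 and 44 counts. HFD M had 27, 14, 26, 19, 23 and 27 counts, and by counts all 6 were above the CD males. HFD+E2 M had 46, 9, 48, 9, 23 and 31 counts, with 2 libraries as low as in CD M. Relative to depth, CD M had 0.754 to 1.06 CPM, CD F had 1.33 to 4.77 CPM and HFD M had 1.33 to 3.12 CPM. The low and narrow values were therefore those of CD M, and the other 4 groups overlapped with each other. In TPM, CD M also overlapped with CD F and with HFD M. The values were 0.456 to 0.849 TPM in CD M, 0.633 to 3.92 TPM in CD F and 0.803 to 2.65 TPM in HFD M. How many of all genes were separated by counts in this way is not given here.

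**Figure D5:**
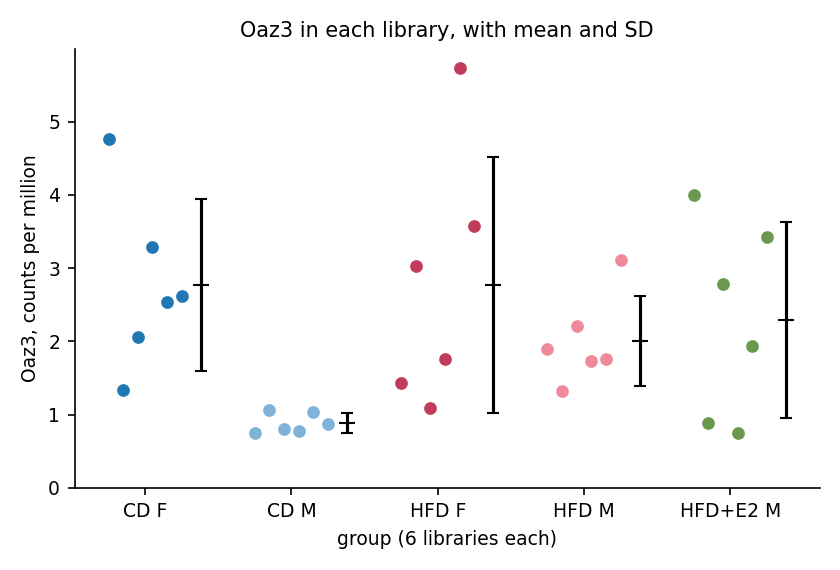
Oaz3 in CPM in each library by group, with the mean and SD of the 6 libraries of a group as a bar beside the points. CD M lay between 0.754 and 1.06 CPM, below every CD F and every HFD M library, while HFD F and HFD+E2 M were widely spread.

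Between CD F and CD M, the log2 fold change of Oaz3 was 1.62 ± 0.28 (SE, edgeR, adjusted p = 0.00536). It remained between 1.44 and 1.77 when each library was left out in turn, with adjusted p-values of 0.00149 to 0.0189. With no filter on low counts it was 1.61 (edgeR, adjusted p = 0.00132). Between HFD M and CD M it was 1.21 ± 0.24 (SE), which was past the unadjusted threshold only (edgeR, adjusted p = 0.233). DESeq2 gave 1.22 and an adjusted p-value of 0.0439 for it. Both pairs of groups had the smallest possible exact permutation p-value of 0.00216, which was 0.0541 after adjustment over 50 tests. Without the 2 HFD M libraries high in squamous genes, the difference between HFD M and CD M was 1.35 (edgeR, adjusted p = 0.173).

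Oaz3 had, between HFD F and CD F, a log2 fold change of 0.02 ± 0.39 (SE, edgeR, adjusted p = 0.999), and between HFD F and HFD M 0.44 ± 0.37 (SE, adjusted p = 0.878). The difference between the diet effects of the sexes, tested as an interaction, was -1.19 ± 0.48 (SE), which was past the unadjusted threshold only (edgeR, adjusted p = 0.665). E2 gave a log2 fold change of 0.16 ± 0.36 (SE, adjusted p = 0.877). The comparisons between the sexes on CD, between the diets in males and the interaction all used the same 6 CD M libraries.

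Summed levels of some other gene lists differed between CD F and CD M as well. The 10 smooth muscle genes summed to 2635 to 4089 TPM in CD F and 4147 to 6888 TPM in CD M without overlap, and 17 genes of the circadian clock summed to 236.4 to 319.6 TPM and 337.9 to 405.0 TPM. The 8 B cell genes summed to 13.8 to 64.2 TPM in CD F and 0.771 to 49.7 TPM in CD M, with overlap. In HFD M, smooth muscle genes summed to 3963 to 6331 TPM and clock genes to 384.8 to 444.6 TPM. Over the 30 libraries Oaz3 correlated with the smooth muscle genes with r = -0.52, with the B cell genes with r = 0.434 and with the clock genes with r = -0.22. Over the 24 libraries without high squamous genes these values were -0.62, 0.586 and -0.19. The part of these gene lists in the Oaz3 difference was not tested. The genes most like Oaz3 over the 30 libraries were Slc17a4 (r = 0.790), Ern1 (0.710), Kdelr2 (0.699), Slc40a1 (0.690) and Tmcc3 (0.667). Slc17a4 is an organic anion transporter of the intestine, Ern1 is a sensor of endoplasmic reticulum stress and Slc40a1 is the iron exporter ferroportin.

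Part of Oaz3 overlaps Tdrkh, a gene of the piRNA pathway on the opposite strand (chromosome 3, 94413273 to 94434668). The libraries were made with a stranded kit, but it is not given whether the counts used strand. The lowest, median and highest counts of Tdrkh were 10, 13 and 25 in CD F and 11, 22 and 33 in CD M. They were 13, 16.5 and 28 in HFD F, 8, 13.5 and 24 in HFD M and 6, 18 and 27 in HFD+E2 M. These counts are of the whole gene, and the part of Tdrkh reads in the Oaz3 counts was not tested.

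Sat1, on the X chromosome (155213132 to 155216449, minus strand), acetylates spermidine and spermine and had the highest counts of the 10 genes. Its lowest, median and highest counts were 725, 886.5 and 1639 in CD F and 692, 893 and 1359 in CD M. They were 721, 832.5 and 1448 in HFD F, 795, 1016 and 1510 in HFD M and 660, 1018.5 and 1544 in HFD+E2 M. The groups overlapped. The log2 fold change was 0.18 ± 0.14 between the sexes on CD and -0.26 ± 0.16 on HFD, 0.25 ± 0.13 between the diets in males and -0.19 ± 0.17 in females (SE), and -0.04 ± 0.15 with E2. The interaction of sex and diet was -0.44 ± 0.23 (SE, edgeR adjusted p = 0.741) and was not called. HFD F 2 was far above the other 5 HFD F libraries. Without it the interaction was -0.60 (edgeR adjusted p = 0.287) and the difference between HFD F and HFD M -0.42 (edgeR adjusted p = 0.477), both past the unadjusted threshold. In these 2 fits 1418 of 15946 and 770 of 15357 genes passed it, compared with 818 of 15800 and 469 of 15179 with HFD F 2.

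Across the 10 genes, the median log2 fold change of those tested was 0.02 between the sexes on CD and 0.13 on HFD, -0.01 between the diets in females, 0.04 in males and 0.01 with E2. The medians of all genes tested were between -0.01 and 0.01. Of the pairs of genes, the lowest correlation over the 30 libraries was that of Odc1 and Sat1 (r = -0.42), given as a description of libraries that share diet, sex and depth.

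Another 49 genes of arginine, nitric oxide and polyamine metabolism were read in the same fits, of which 42 or 43 could be tested in each comparison. Between CD F and CD M, 2 were higher and 2 were lower in females, 9.52% of those tested beside 9.15% of all genes. Cps1, the mitochondrial carbamoyl phosphate synthetase of the urea cycle, was lower in CD F (-0.61 ± 0.14 SE, edgeR adjusted p = 0.0230), with 222 to 454 counts compared with 316 to 672 in CD M. Aoc1, the diamine oxidase that breaks down putrescine and histamine, was higher in CD F (0.45 ± 0.11 SE, edgeR adjusted p = 0.0306), with 2622 to 4756 counts compared with 2321 to 3980. Oat, the ornithine aminotransferase, was higher (0.53 ± 0.16 SE, edgeR adjusted p = 0.0879) and Sat2 lower (-0.62 ± 0.23 SE, edgeR adjusted p = 0.196), both by the unadjusted threshold only.

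In the other comparisons no gene of the pathway list passed the adjusted threshold. In HFD F against CD F, 0 of 42 passed the unadjusted one. Srm, the spermidine synthase, was the 1 of 43 genes called between HFD M and CD M, where it fell by 0.72 on the log2 scale (SE 0.24, edgeR adjusted p = 0.716), and the 1 of 43 called between HFD F and HFD M, where it was 0.63 ± 0.17 (SE) higher in females (edgeR adjusted p = 0.682). The lowest, median and highest counts of Srm, not scaled for depth, were 36, 41 and 52 in HFD M, 38, 78 and 104 in CD M and 54, 70 and 90 in HFD F. With E2, 1 gene was higher and 4 were lower, 11.9% of those tested beside 5.87% of all genes. Slc7a2 (-0.72 ± 0.21 SE, edgeR adjusted p = 0.454), the eIF5A isoform Eif5a2 (-0.72 ± 0.23 SE, edgeR adjusted p = 0.455), Cps1 (-0.50 ± 0.20 SE, edgeR adjusted p = 0.461) and Gatm, which makes the precursor of creatine from arginine (-0.46 ± 0.19 SE, edgeR adjusted p = 0.461), were lower, and Srm was 0.45 ± 0.19 (SE) higher. For the interaction, Slc7a7 (-0.55 ± 0.18 SE), an exporter of arginine, and Oat (-0.53 ± 0.24 SE) were lower and Srm (0.66 ± 0.31 SE) was higher, with adjusted p-values of 0.603, 0.703 and 0.727 in edgeR. These 3 were 6.98% of the 43 tested beside 5.18% of all genes. The interaction values, and those of Srm in the 3 comparisons named, share the HFD M libraries. The median log2 fold change of the list was between -0.06 and 0.09 in the 6 fits, beside -0.01 to 0.01 for all genes.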

How the data were processed

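Colon RNA of 30 mice was sequenced after removal of ribosomal RNA with a stranded kit. The authors trimmed the reads with Trim Galore, mapped them to the mouse genome (GRCm38, mm10) with STAR and assigned them to genes with featureCounts, and these deposited counts are whole numbers without normalization. The deposited TPM values, which take gene length and library total into account, were made by the authors with StringTie. When every count column was compared with every TPM table, the best match was its own library in 30 of 30 cases. Whether the counting used strand is not given in the sources used here. The study describes the 6 libraries of a group as biological replicates.

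Counts of the 12 libraries of a comparison, or of the 24 vehicle libraries for the interaction, were fitted with edgeR 4.0.16 in R 4.3.3 (filterByExpr, TMM normalization, robust quasi-likelihood fit and F-test), and p-values were adjusted by the Benjamini-Hochberg method over all genes tested. Standard errors follow from the F statistic. The exact two-sided permutation test used log2 CPM with a prior count of 2 and all 924 splits of 12 libraries. The fits were checked on simulated data. Alternatives were DESeq2 1.42.0, its size factors, no filter on low counts, a single fit of all 30 libraries, a block for the replicate number, TPM in place of CPM, a prior count of 0.5 and each library left out. Leaving out the 6 libraries with over 100 TPM of squamous epithelium genes was chosen after seeing the data.

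The 10 genes, the list of other pathway genes and the marker lists were chosen with earlier results of these data known. Named beside the 10 genes are, in each comparison, the pathway genes past the unadjusted threshold (at most 4 by p-value, and Srm, which other comparisons name), the 5 genes most correlated with Arg1, Nos2 and Oaz3 among genes with a mean of at least 1 CPM, and genes that overlap or copy the 10; Amd2 and Oaz1-ps were added after their values were seen. Sequences are from the GENCODE transcripts of GRCm38. Counts have no molecular identifiers, so depth limits Arg1, Arg2 and Nos2 most.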

Additional observations from a re-analysis of the deposited data

Results flagged for a closer look

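Each gene was tested in each group of 6 libraries, which gave 50 sets. Of these sets, 3 held a library that stood apart from the other 5 by Dixon's test, about as many as chance gives at 1 in 20. The sets share libraries and are not independent, and HFD F 2 was flagged for both Nos2 and Sat1. Nos2 in HFD F 2 was the lowest of its group, with 3 counts and a gap of 0.662 of the group's range. Nos2 in HFD+E2 M 2 was also the lowest of its group, with 0 counts and a gap of 0.728, and a count of 0 in this library allows up to 3 counts. Sat1 in HFD F 2 was the highest of its group, with 1448 counts and a gap of 0.63.

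The effect of HFD on Oaz3 differed between the sexes in the interaction test, by -1.19 on the log2 scale (edgeR, adjusted p = 0.665), past the unadjusted threshold only. The diet difference was 1.21 in males and 0.02 in females. The interaction was between -1.54 and -1.004 with any single one of the 24 libraries removed, and -1.06 without the 6 libraries high in squamous epithelium genes.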

How the results depend on the processing

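The call of Oaz3 between CD F and CD M was kept by both rules under all alternatives run. The number of genes called changed mainly with the low genes Arg1, Arg2 and Nos2, which some alternatives test and the filter on low counts does not. With DESeq2, 3 of the 10 genes were called between CD F and CD M (Oaz3, Arg2 and Nos2), and 2 in each of the comparisons HFD F with CD F, HFD M with CD M and HFD+E2 M with HFD M, of which 1 in each passed the adjusted threshold (Arg1, Oaz3 and Arg1). Both Arg1 calls rest on the few HFD libraries where it was high. With E2 these were HFD M 2 and 4, with 552 and 187 counts, and the exact permutation p-value was 0.251. The shares of all genes called in these 4 DESeq2 fits were 6.3%, 3.64%, 2.18% and 4.32%, and by the adjusted threshold 2.8%, 0.766%, 0.0902% and 0.182%. With no filter, 2 were called in each of these 4 comparisons (8.13%, 5.34%, 3.8% and 6.55% of all genes). With all 30 libraries in one fit, 2 were called in each of the first 3 and 1 with E2 (8.49%, 4.39%, 3.24% and 7.12% of all genes). In that fit Arg1 also passed the adjusted threshold between HFD F and CD F, as did 0.535% of all genes. There Arg1 passed the filter through the libraries where it was high, so this call is a description. Without the libraries high in squamous epithelium genes, 0 were called between HFD F and CD F, with or without the filter (2.36% and 2.61% of all genes). The libraries left out were also those of HFD F highest in Arg1 and Nos2.

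Leaving out each library gave 0 to 1 calls between HFD F and HFD M (Sat1 without HFD F 2), 1 to 2 between HFD F and CD F and 1 to 3 for the interaction. Of all genes, at most 770 of 15357, 827 of 15193 and 1418 of 15946 were called in these fits, each time without HFD F 2. With all libraries these were 469 of 15179, 553 of 15061 and 818 of 15800. The call added between HFD F and CD F was Arg1, which passed the filter without CD F 2, 3, 4, 5 or 6 or HFD F 2 or 6 (6.05 to 6.62, edgeR adjusted p = 0.112 to 0.710). Arg1 passed it through the HFD F libraries where it was high, so this call is a description. For the interaction, Sat1 was added without CD F 3 or 5, CD M 1 or HFD M 4, Nos2 without CD M 3, 4 or 5 or HFD M 2, and both without HFD F 2.

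Directions turned as follows. The libraries high in squamous genes were also those high in Arg1, so its differences had to shrink without them. In HFD M, these libraries also had the highest Nos2. Without these libraries, the difference of Arg1 became -0.24 (fit with no filter -0.62) between HFD F and CD F, -0.56 (-2.03) between HFD M and CD M and 0.018 (0.21) with E2. That of Nos2 between HFD M and CD M became -0.33 (-1.02) without them, -0.24 with DESeq2, -0.24 with no filter and -0.23 with all 30 libraries, and ranged from -0.056 to 0.64 when each library was left out, below 0 without HFD M 2 or 4 or CD M 3, 4 or 5.

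Same-numbered libraries deviated together (r over 0.1, 500 genes) in 2 to 5 of 6 pairs, and in no comparison in all 6, so the replicate numbers were not taken to pair the libraries. Between CD F and CD M, 5 of 6 pairs did so (median r = 0.269), and 3 of 6 correlated best with their own number. There a replicate block raised the genes past the adjusted threshold from 435 to 941 of 14922, or from 2.92% to 6.31%. The block gave 2 calls among the 10 genes for the interaction, Oaz3 and Sat1 (6.89% of all genes), and changed no other count of calls among them. Of all values computed under alternatives, 437 were the same in direction and side of the threshold, 36 counts moved, 12 became stronger, 32 weaker and 16 reversed. The cause of these changes was not tested. With 0 to 61 counts per library, differences of Arg2 and Nos2 were not firmly measurable at this depth.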
